A study of Homo sapiens with 4 samples.

Results

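The interferon regulatory factor (IRF) genes were followed in the lists of H3K4me3 and WDR5 peaks of 2 leukemia cell lines. The members were the 8 genes IRF1, IRF2, IRF3, IRF4, IRF5, IRF7, IRF8 and IRF9, taken from the lines of the 4 peak lists that carry one of these symbols, out of 20162 protein-coding genes in the annotation used here. They were divided into the lineage factors IRF4 and IRF8 and the 6 general members. ChIP-seq of WDR5 (antibody ab56919) and of H3K4me3 (antibody ab8580) was done in RS4;11 cells, a B-precursor acute lymphoblastic leukemia line, and in THP-1 cells, a monocytic acute myeloid leukemia line. Both lines carry an MLL rearrangement, neither was treated, and both grew in RPMI1640 with fetal bovine serum, so the comparison is between 2 established lines and not between a normal and a leukemic cell. Each combination of line and antibody is 1 sample. There are no replicates, the peak lists give no reads or heights and the depth is unknown, so every value below is a description of these samples and no test was made. In 2 samples, WDR5 in THP-1 and H3K4me3 in RS4;11, the labelled leukemia type is that of the other line, and the cell line names were followed.

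IRF proteins bind DNA elements with repeated GAAA letters and share an N-terminal DNA-binding domain. H3K4me3, trimethylation of lysine 4 of histone H3, marks the start sites of active and poised genes, and WDR5 is a subunit of the MLL and SET1 complexes that place it. IRF1 was found as an activator of the interferon beta gene and IRF2 as its antagonist. IRF3 and IRF7 carry the signal of viral sensors to the type I interferon genes, IRF5 acts below Toll-like receptors, and IRF9 is the DNA-binding part of the ISGF3 complex, which also holds STAT2. IRF4 and IRF8 bind together with the ETS factors PU.1 and SPIB and act in the development of B cells, and IRF8 acts in that of monocytes and dendritic cells too.

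Start-site sequences are shown for the 4 members whose canonical start has an entry among the RefSeq promoters (build GRCh38.p14), since the H3K4me3 peaks of these genes lay over them or were missing there. Each runs 5′ to 3′ from 250 bases before to 50 bases after a start site, and its place in GRCh37, which has the coordinates of hg19, is where a script found the same letters. Of the 8 members, 5 matched an entry, with 9 windows in all, of which 1 at IRF5 had no identical letters in GRCh37 and was given no place. IRF2, IRF3 and IRF7 have no entry. Capitals mark the motifs searched on both strands: the interferon-stimulated response element ISRE (GAAANNGAAA), the ETS-IRF composite element EICE (GGAANNGAAA), the STAT site GAS (TTCNNNGAA) and the TATA box (TATAAA). ISRE and EICE differ in their second letter, so they cannot match at the same place of a strand. A second IRF5 window, at an inner start site, is shown because it held the EICE letters.
IRF1, chr5:131826416-131826715, minus strand: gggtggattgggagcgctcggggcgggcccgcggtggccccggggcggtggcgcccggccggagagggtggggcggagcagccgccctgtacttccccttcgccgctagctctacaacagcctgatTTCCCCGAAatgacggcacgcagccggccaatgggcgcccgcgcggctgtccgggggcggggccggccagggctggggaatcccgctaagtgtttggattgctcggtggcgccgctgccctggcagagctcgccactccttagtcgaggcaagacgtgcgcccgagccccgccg
IRF4, chr6:391502-391801, plus strand: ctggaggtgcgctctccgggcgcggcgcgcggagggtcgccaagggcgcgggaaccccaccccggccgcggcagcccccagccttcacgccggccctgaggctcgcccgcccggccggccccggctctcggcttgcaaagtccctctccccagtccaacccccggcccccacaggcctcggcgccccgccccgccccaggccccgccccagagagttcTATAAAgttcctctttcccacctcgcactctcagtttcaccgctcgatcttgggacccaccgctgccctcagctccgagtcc
IRF5, chr7:128577731-128578030, plus strand: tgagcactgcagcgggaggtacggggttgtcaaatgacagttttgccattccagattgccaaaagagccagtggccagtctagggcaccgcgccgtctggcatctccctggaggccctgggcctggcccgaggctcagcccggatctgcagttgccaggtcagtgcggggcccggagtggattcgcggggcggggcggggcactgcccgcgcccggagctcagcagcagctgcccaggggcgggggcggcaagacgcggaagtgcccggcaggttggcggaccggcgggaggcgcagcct
IRF5 inner start, chr7:128580474-128580773, plus strand: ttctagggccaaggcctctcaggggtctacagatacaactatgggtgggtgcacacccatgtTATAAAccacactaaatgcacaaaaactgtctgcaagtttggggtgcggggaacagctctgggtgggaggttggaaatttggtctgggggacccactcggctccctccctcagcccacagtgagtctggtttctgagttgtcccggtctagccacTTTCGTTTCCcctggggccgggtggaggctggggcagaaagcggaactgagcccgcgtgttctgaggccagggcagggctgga
IRF9, chr14:24630224-24630523, plus strand: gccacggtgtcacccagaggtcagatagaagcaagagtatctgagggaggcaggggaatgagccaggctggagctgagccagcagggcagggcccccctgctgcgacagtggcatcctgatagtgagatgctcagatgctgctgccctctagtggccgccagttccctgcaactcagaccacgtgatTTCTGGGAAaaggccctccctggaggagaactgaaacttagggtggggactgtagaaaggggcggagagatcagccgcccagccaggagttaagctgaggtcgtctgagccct

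The IRF1 window held 1 GAS match, from 124 to 116 bases before the start, and the IRF9 window held 1 as well, from 63 to 55 bases before it. The GAS letters were in 7.66% of all 35116 RefSeq promoter windows of this length. The IRF4 window held a TATA box 32 to 27 bases before the start, which 11.5% of the windows hold somewhere. The IRF5 window at the canonical start held none of the 4 motifs. Its inner start, 2743 bp downstream, held the EICE letters on the minus strand 33 to 24 bases before the start (2.82% of all windows). The letters TATAAA lay 188 to 183 bases before this inner start. None of these 5 windows held ISRE, which 3.57% of all windows hold. CpG dinucleotides numbered 36 in the IRF1 window, 32 in IRF4 and 25 in the canonical IRF5 window, against 7 in IRF9 and a median of 14 over all windows. The IRF8 entries lie at inner start sites 3668 and 3853 bp downstream of the canonical start, where neither line had a peak over them.

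Before the members' values, the reach of the peak lists has to be given, because it bears on every missing peak. The widest H3K4me3 peak was 4478 bp in RS4;11 and 4446 bp in THP-1. RS4;11 had 347 peaks from 4000 to under 4250 bp, 118 from 4250 to under 4500 bp and 0 above, and THP-1 had 245, 32 and 0. The housekeeping genes ACTB, GAPDH and EEF1A1, chosen after their values were seen, had no listed peak over the canonical start in either line. The share of start sites under a peak of one line that had no peak in the other was high at both ends of the width range. Under RS4;11 peaks it was 34.0% at 500 to 999 bp, 20.9% at 1000 to 1499 bp, 11.5% at 1500 to 1999 bp and 8.87% at 2000 to 2499 bp, and it was 40.3% at 4000 to 4499 bp. Under THP-1 peaks it was 59.7% at 500 to 999 bp, 47.2% at 1000 to 1499 bp, 26.3% at 1500 to 1999 bp and 11.2% at 3000 to 3499 bp, and it was 26.4% at 4000 to 4499 bp. Under THP-1 peaks the share was thus higher at 500 to 1499 bp than at 4000 to 4499 bp. Under RS4;11 peaks it was higher at 4000 to 4499 bp than in any bin named from 500 to 2499 bp. The RS4;11 start-site peaks of IRF8 (1410 bp) and IRF5 (1671 bp) fall in the bins with 20.9% and 11.5%. The IRF5 peak lies 27 bp from a further peak, with which it spans 4388 bp, a width in the bin with 40.3%. Since neither list reaches 4500 bp, a start site with no listed peak cannot be told apart from one under a peak wider than the lists hold. This applies to IRF2 in both lines, to IRF5 and IRF8 in THP-1 and to every other gene below that lacks a listed peak. Marker genes gave a mixed picture of the lines. Over their canonical starts, 4 of 12 B-lineage markers had a peak in RS4;11 and 4 in THP-1, among them CD79A and CD79B in RS4;11 only and PAX5, EBF1 and BLNK in THP-1 only. Of 12 monocytic markers, 4 had a peak in RS4;11 and 8 in THP-1, among them CSF1R, ITGAM, MNDA, CSF3R and S100A9 in THP-1 only and CEBPE in RS4;11 only. The B-lineage genes VPREB1, IGLL1, RAG1, RAG2 and DNTT and the monocytic genes CEBPA, MPO and FCGR1A had none in either line, nor had any of 6 markers of other cell types. Some markers named for 1 line only had a listed peak of the other line near the canonical start. BLNK had 1704 bp of peak within 5 kb in RS4;11, the nearest 496 bp away, against 1706 bp in THP-1. In THP-1 the 5′ end of CEBPE was covered and the nearest peak lay 421 bp from its canonical start. CD79B had 946 bp within 5 kb in THP-1 and CSF1R 1955 bp in RS4;11. CD79A, PAX5, EBF1, ITGAM, MNDA, CSF3R and S100A9 had 0 bp within 5 kb in the other line.

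**Figure D1:**
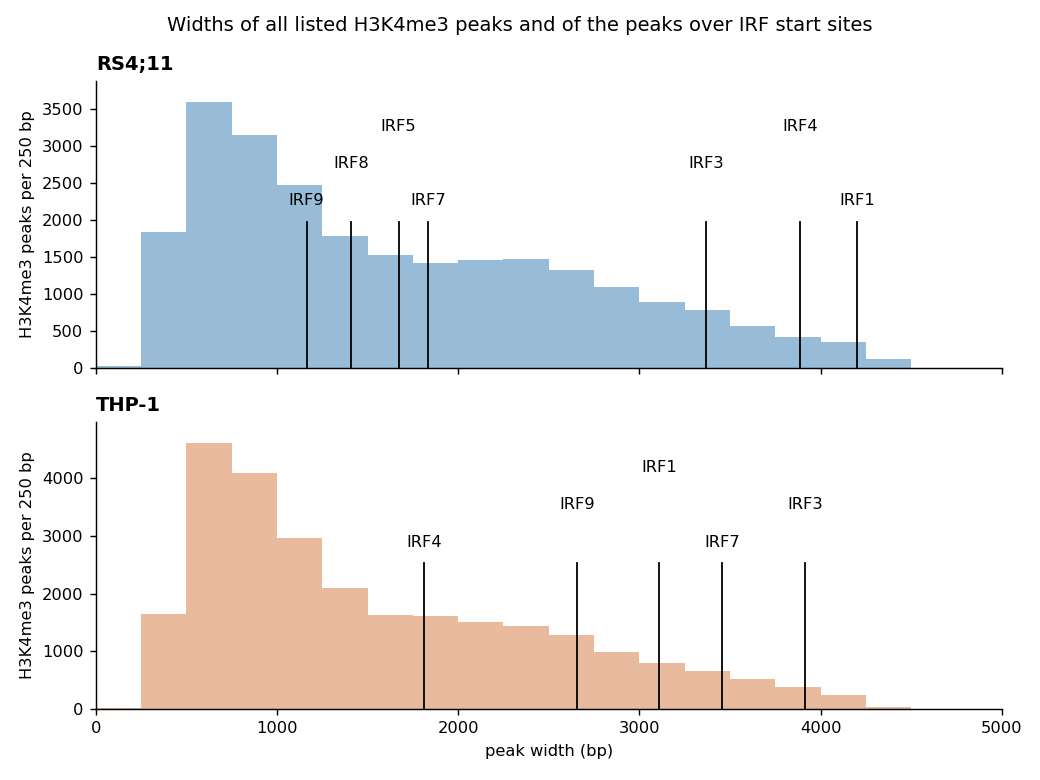
Number of listed H3K4me3 peaks per 250 bp of width (bars) in RS4;11 and in THP-1, 1 sample each, with black lines at the widths of the peaks over the canonical start sites of IRF genes. Both distributions end below 4500 bp, and the RS4;11 peak of IRF1, at 4204 bp, is the member nearest to that end.

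H3K4me3 peaks were listed for all 8 genes in both lines, 28 distinct peaks in RS4;11 and 21 in THP-1. IRF2 had the most, 7 in RS4;11 and 6 in THP-1, and IRF5 in THP-1 had the fewest, 1. Numbers were equal between the lines for IRF1 (3), IRF3 (2), IRF4 (2), IRF7 (2) and IRF9 (3), and higher in RS4;11 for IRF8 (6 against 2), IRF5 (3 against 1) and IRF2. The member peaks were 636 to 4204 bp wide in RS4;11 (median 1631 bp, against 1391 bp over all its peaks) and 452 to 4000 bp wide in THP-1 (median 2211 bp, against 1241 bp). The number of peaks did not follow the covered start: the gene with the most peaks, IRF2, had none over its start site, while IRF3 and IRF7 had 1 there of 2.

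Over the 5′ end of the gene, 5 of 8 members had an H3K4me3 peak in RS4;11 (IRF3, IRF4, IRF7, IRF8 and IRF9), beside 45.7% of all protein-coding genes. In THP-1, 4 of 8 had one (IRF3, IRF4, IRF7 and IRF9), beside 48.4%. The 5′ end of IRF1 belongs to an incomplete transcript that starts 17946 bp upstream of its canonical start, and that of IRF5 lies 470 bp upstream. At the start of the canonical transcript, used from here on, RS4;11 had a peak at 7 of 8 members (all but IRF2), against 49.0% of protein-coding genes, and THP-1 at 5 of 8, against 52.7%. The start was covered in both lines for IRF1, IRF3, IRF4, IRF7 and IRF9, a pattern that 41.5% of protein-coding genes had. It was covered in RS4;11 and not in THP-1 for IRF5 and IRF8, against 7.5% of protein-coding genes, and in THP-1 and not in RS4;11 for 0 members, against 11.2%. With 8 genes in the set, these shares are given for scale only.

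**Figure D2:**
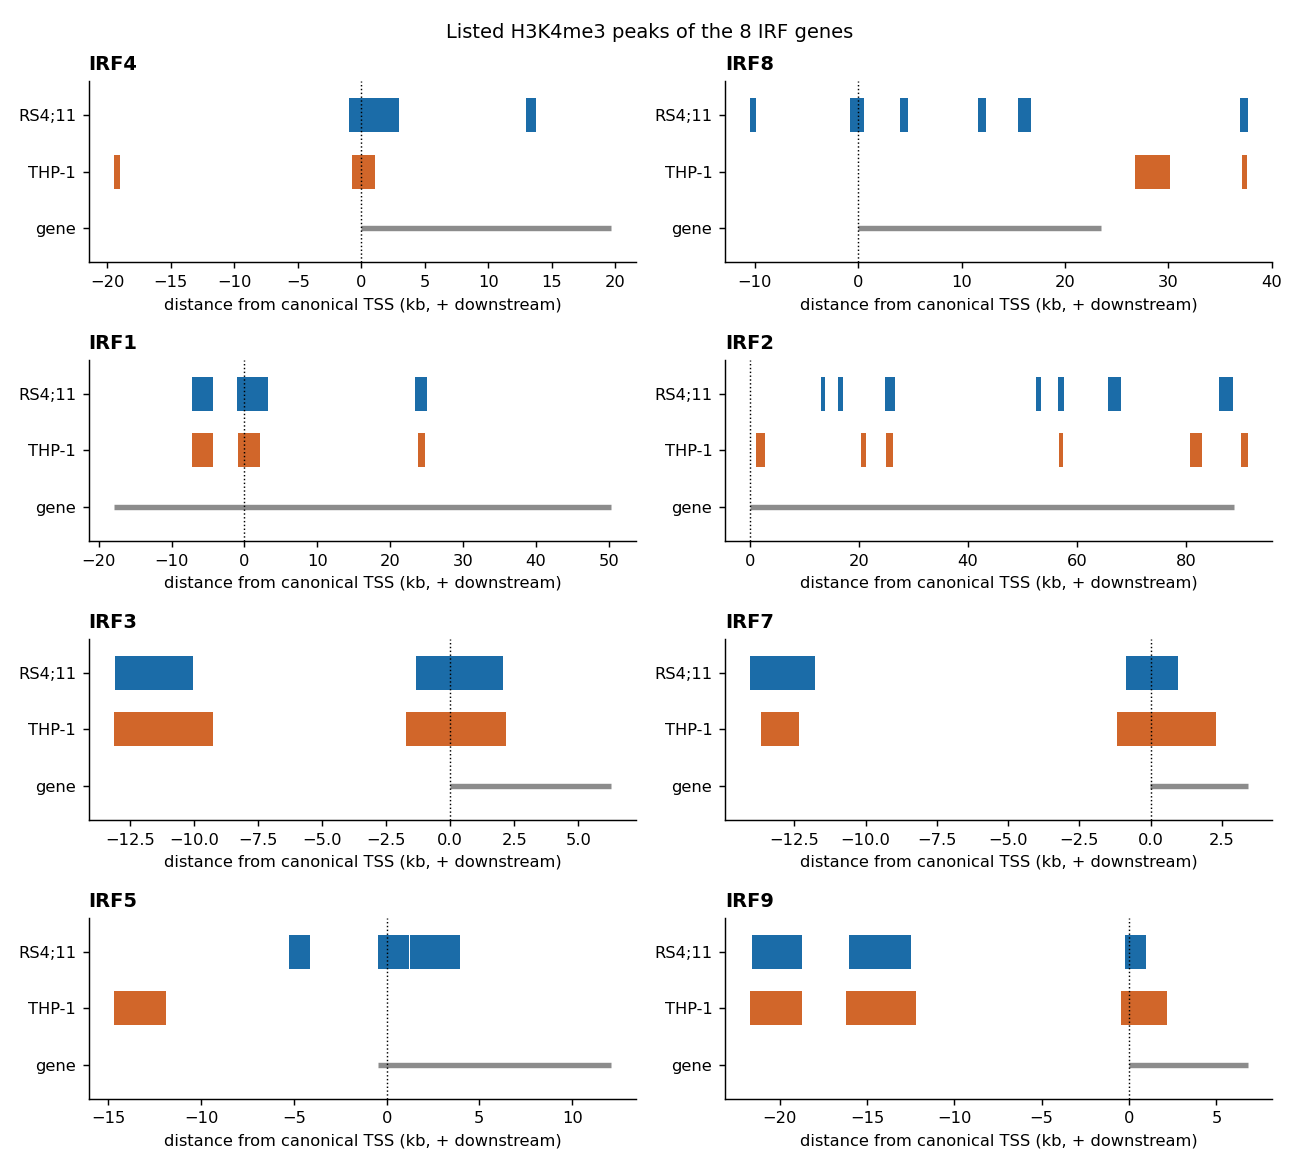
Position of each listed H3K4me3 peak (boxes) of the 8 genes in RS4;11 and THP-1, in kb from the canonical start site (dotted line, downstream to the right), with the extent of the annotated gene in grey, which for IRF1 includes long outer transcripts. The start sites of IRF5 and IRF8 have a box in RS4;11 only, and that of IRF2 has none in either line.

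IRF4, a factor of B-cell and plasma-cell development, had a peak over its start in both lines, and it was wider in RS4;11. The gene lies on chr6:391739-411443 on the plus strand. The RS4;11 peak, chr6:390812-394698, was 3887 bp wide and ran from 940 bp upstream to 2946 bp downstream of the start, over exons 1 and 2. The THP-1 peak, chr6:390989-392800, was 1812 bp wide, ran from 763 bp upstream to 1048 bp downstream and reached no coding exon. It lay wholly inside the RS4;11 peak, of which it covered 46.6%. The upstream edges thus lay closer together than the downstream ones. The RS4;11 peak was wider than 93.2% of all peaks over canonical starts of that line and the THP-1 peak wider than 23.3% of those of its own. Of 8368 genes covered in both lines, 2.25% had a lower ratio of THP-1 to RS4;11 width than the 0.466 of IRF4. Each line had 1 further peak that the other lacked. In RS4;11 it was 775 bp wide and lay over exon 8 (chr6:404725-405499), and in THP-1 it was 540 bp wide and lay 18981 bp upstream of the start (chr6:372232-372771).

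IRF8, a factor of B cells, monocytes and dendritic cells, had a peak over its start in RS4;11 and no listed peak there in THP-1. The gene lies on chr16:85932722-85956212 on the plus strand. The RS4;11 start-site peak, chr16:85931980-85933389, was 1410 bp wide, from 788 bp upstream to 621 bp downstream over exon 1, and only 7.68% of the start-site peaks of that line were narrower. Another 3 RS4;11 peaks of 819, 810 and 1253 bp lay in introns 2, 3 and 6, 1 of 636 bp lay 9827 bp upstream, and 1 of 752 bp lay past the 3′ end. In THP-1 the 2 listed peaks both lay past the 3′ end of the gene, at 26805 bp from the start (chr16:85959573-85962930, 3358 bp) and at 37139 bp (chr16:85969907-85970358, 452 bp). The 452 bp peak overlapped the RS4;11 peak past the 3′ end, and it was the only THP-1 peak of IRF8 that overlapped an RS4;11 peak. The THP-1 list had a gap of 124453 bp without a peak around the IRF8 start, and it holds no peak wider than 4446 bp anywhere.

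IRF1, the activator found at the interferon beta gene, had matching sets of 3 peaks listed under its symbol in both lines. In RS4;11 these 3 summed to 8697 bp, while all peaks together covered 10864 bp of the annotated gene. In THP-1 both values were 6884 bp. The start-site peak was 4204 bp wide in RS4;11 (chr5:131823261-131827464, exons 1 to 3) and 3108 bp wide in THP-1 (chr5:131824258-131827365, exons 1 and 2). The upstream edges were at 999 and 900 bp, and the RS4;11 peak reached 3204 bp downstream against 2207 bp. It was wider than 98.0% of the start-site peaks of RS4;11. A peak upstream, nearest edge 4323 bp from the start in RS4;11 and 4310 bp in THP-1, was 2902 and 2873 bp wide, and the lines shared 2860 bp of it. The third peak lay 23443 bp downstream in RS4;11 and 23817 bp in THP-1, was 1591 bp wide in RS4;11 and 903 bp in THP-1, and was listed for the neighbouring C5orf56 as well.

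IRF2, the antagonist of IRF1, had no listed peak over its canonical start in either line. The gene lies on chr4:185306856-185395712 on the minus strand. The nearest RS4;11 peak lay 13082 bp downstream of the start and was 750 bp wide, and the list had no peak over 185520 bp around the start. The nearest THP-1 peak lay 1205 bp downstream in intron 1 and was 1579 bp wide (chr4:185392921-185394499). All 7 RS4;11 peaks and 5 of 6 THP-1 peaks lay within the gene body, where they covered 11.3% and 7.51% of its length. Each line shared 2 of these peaks with the other, a site in intron 1 (1723 bp wide in RS4;11, 1292 bp in THP-1) and a site in intron 5 (1063 and 781 bp).

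IRF3, which carries the signal of viral sensors to interferon genes, had wide peaks with similar edges in both lines. The start-site peak was 3370 bp wide in RS4;11 (chr19:50167069-50170438) and 3916 bp wide in THP-1 (chr19:50166940-50170855), and the RS4;11 peak lay wholly inside the THP-1 peak. It spanned the canonical start of BCL2L12, which runs in the opposite direction, so the peak cannot be assigned to IRF3 alone. The other peak listed for IRF3, 3042 bp wide in RS4;11 and 3864 bp in THP-1, lay over the start of PRMT1. Its nearest edge was 10057 bp upstream of IRF3 in RS4;11 and 9284 bp in THP-1.

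IRF7, which amplifies the interferon response, had a wider start-site peak in THP-1. It was 1832 bp wide in RS4;11 (chr11:614976-616807) and 3456 bp wide in THP-1 (chr11:613670-617125), a ratio of THP-1 to RS4;11 of 1.89. The RS4;11 peak ran from 857 bp upstream to 974 bp downstream, over exons 1 to 4 of this short gene, and the THP-1 peak from 1175 bp upstream to 2280 bp downstream, over exons 1 to 8. They covered 29.4% and 67.4% of the gene body. The peak upstream, nearest to the start of SCT, went the other way, with 2285 bp in RS4;11 and 1325 bp in THP-1.

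IRF9, the DNA-binding part of ISGF3, followed IRF7. Its start-site peak was 1163 bp wide in RS4;11 (chr14:24630265-24631427), a width below which only 4.67% of the start-site peaks of that line fell, and 2656 bp wide in THP-1 (chr14:24629987-24632642), a ratio of 2.28. The upstream edge was at 209 bp in RS4;11 and 487 bp in THP-1 and the downstream edge at 953 and 2168 bp, so the THP-1 peak was longer on both sides. The RS4;11 peak covered 259 of the 300 bases of the IRF9 window printed above, and the THP-1 peak covered all of them. Of the genes covered in both lines, 97.5% had a lower ratio of THP-1 to RS4;11 width than IRF7 and 98.7% a lower one than IRF9. The 2 upstream peaks listed for IRF9 in each line lay over the starts of EMC9 and of PSME2 and RNF31. They were 2862 and 3530 bp wide in RS4;11 and 3014 and 4000 bp wide in THP-1, so their widths were nearer to each other than those at the IRF9 start.

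IRF5, which acts below Toll-like receptors, had 3 peaks in RS4;11 and none near its start in THP-1. The gene lies on chr7:128577511-128590092 on the plus strand. The peak over the canonical start (chr7:128577537-128579207, 1671 bp) was followed after 27 bp by a peak in intron 1 (chr7:128579235-128581924, 2690 bp), and together they spanned 4388 bp. The canonical IRF5 window printed above lay in the former of these peaks and the inner-start window in the latter. Another peak, of 1095 bp, lay 4149 bp upstream. The only THP-1 peak listed for IRF5 (chr7:128563262-128566076, 2815 bp) lay 11905 bp upstream and was listed for KCP too. Around the IRF5 start the THP-1 list had a gap of 87555 bp without a peak, to which the same limit on wide peaks applies.

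The bp covered by H3K4me3 peaks within 5 kb to each side of the canonical start took all peaks at a start together. In RS4;11 the order was IRF5 (5213 bp), IRF1 (4882 bp), IRF4 (3887 bp), IRF3 (3370 bp), IRF8 (2229 bp), IRF7 (1832 bp), IRF9 (1163 bp) and IRF2 (0 bp), with a median of 2799.5 bp against 1267 bp over all protein-coding genes. In THP-1 it was IRF3 (3916 bp), IRF1 (3799 bp), IRF7 (3456 bp), IRF9 (2656 bp), IRF4 (1812 bp) and IRF2 (1579 bp), with IRF5 and IRF8 at 0 bp. The median there was 2234 bp against 1590.5 bp. The order of the 2 medians turned with windows of 2 kb to each side (2125 bp in RS4;11, 2150 bp in THP-1) and with the full width of the peak at or nearest to the start (1751.5 and 2961.5 bp). With 1 sample a line there is no spread to say which neighbours in these orders differ. IRF1 and IRF3 stood among the upper 4 in both lines, IRF4 stood above IRF7 and IRF9 in RS4;11 and below them in THP-1.

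**Figure D3:**
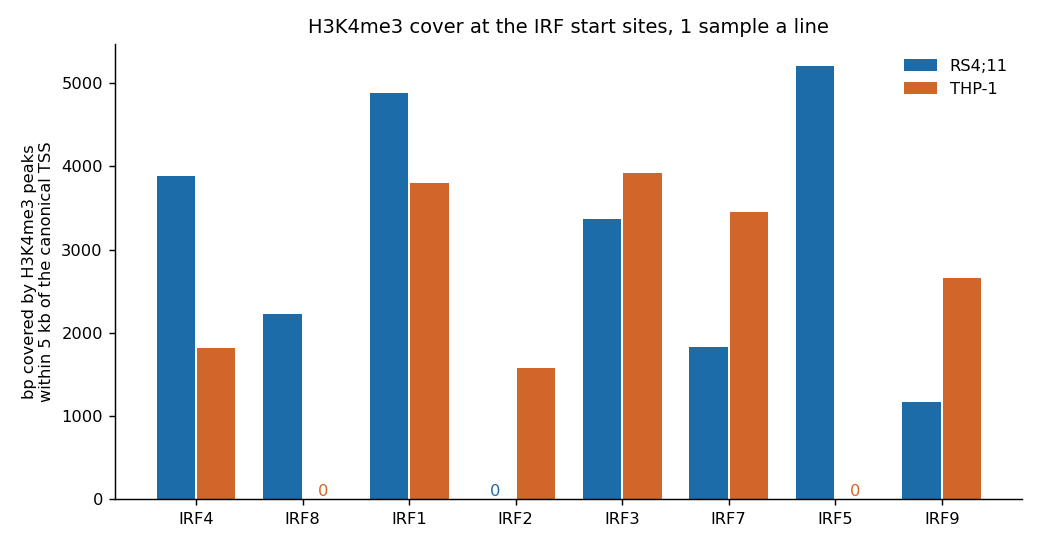
Base pairs covered by listed H3K4me3 peaks within 5 kb to each side of the canonical start site (bars, from 0) of each IRF gene in RS4;11 and THP-1, 1 sample each, so no error can be drawn. IRF4, IRF8, IRF1 and IRF5 are higher in RS4;11, and IRF2, IRF3, IRF7 and IRF9 are higher in THP-1. The limit on wide peaks applies to the 0 bp of IRF2 in RS4;11 and of IRF5 and IRF8 in THP-1.

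The difference of RS4;11 minus THP-1 in covered bp was 2075 bp at IRF4 and 2229 bp at IRF8, and both lineage factors thus had more in the B-precursor line. Over 14210 protein-coding genes with cover in either line the median difference was -72 bp, and 14.3% and 13.0% had differences at least as large in either direction. The general members went both ways, with 5213 bp at IRF5, 1083 bp at IRF1, -546 bp at IRF3, -1493 bp at IRF9, -1579 bp at IRF2 and -1624 bp at IRF7, and a median of -1019.5 bp. Both lineage values lay inside the range of the general members. A difference as large as that of IRF5 was seen at 0.155% of the genes. The values of IRF5 and IRF8 rest on a missing THP-1 peak, whose width limit is given above. The same limit applies to IRF2, which had 0 bp in RS4;11 and enters the median of the general members. IRF4, IRF7 and IRF9 had a start-site peak in both lines. By these values the genes nearest to IRF4 among all others were ANKH, SIAH1, ZUP1, KDM3A and CORO2B, within 77 to 100 bp in the sum over the 2 lines. Among those nearest to IRF8 were PPP1R3G, RFX8, SRPK3 and UQCC4, within 4 to 10 bp, all with 0 bp in THP-1.

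Of the member peaks, 14 of 28 in RS4;11 (50%) overlapped a THP-1 peak by at least 1 bp, against 55.8% of all RS4;11 peaks, and 14 of 21 in THP-1 (66.7%) overlapped an RS4;11 peak, against 51.8%. All peaks of IRF1, IRF3, IRF7 and IRF9 overlapped in both lines, and no peak of IRF5 did. IRF2 had 2 overlapping peaks in each line, IRF4 1 and IRF8 1.

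WDR5 peaks were listed for 0 of the 8 IRF genes in RS4;11 and 0 in THP-1, in lists of 703 and 225 peaks. Of all protein-coding genes, 4.38% in RS4;11 and 1.48% in THP-1 had a WDR5 peak within 20 kb of the gene body, and a set of 8 genes is too small to set apart from such shares. No member had a WDR5 peak within 50 kb. In RS4;11 the nearest lay 50.3 kb from the IRF5 gene body, 478 kb from IRF1 and more than 1000 kb from the other members. In THP-1 the nearest lay 470 kb from IRF3, and none was listed on the chromosome of IRF9.

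The other genes of the interferon pathway were counted by role over their canonical starts, with all protein-coding genes at 49.0% in RS4;11 and 52.7% in THP-1. Of 69 genes, 49 had a peak in RS4;11 (71.0%) and 37 in THP-1 (53.6%), or 40 and 31 over the 5′ end. As with IRF5 and IRF8, more starts were covered in RS4;11 only (14 genes, 20.3%, against 7.5% of all protein-coding genes) than in THP-1 only (2 genes, 2.9%, against 11.2%). The limit on wide peaks given above applies to each missing peak in these counts. Some starts counted in RS4;11 only also had a listed THP-1 peak close beside them, at distances given below. Of the 35 pathway genes covered in both lines, the THP-1 peak was the wider at 27 and the RS4;11 peak at 8. Whether unlisted wide THP-1 peaks add to the RS4;11-only count was not tested. Receptors and kinases had 11 of 11 in RS4;11 and 8 in THP-1, where the receptor chains IFNGR2 and IFNLR1 and the kinase JAK2 had none. For IFNGR2 a THP-1 peak lay 133 bp from the start, and for JAK2 and IFNLR1 THP-1 had 0 bp within 5 kb. Sensors and adaptors had 13 of 17 and 8, and those covered in RS4;11 only were STING1, TRAF3, IRAK1, TLR7 and TLR9, all of which act upstream of IRF3, IRF5 or IRF7. TRAF3 and IRAK1 had a THP-1 peak 377 and 31 bp from the start. The 5 interferon genes had none in either line. Interferon-stimulated genes had 17 of 23 in RS4;11 and 14 in THP-1, with OAS2, IFI44L, USP18 and GBP1 in RS4;11 only and CXCL10 in THP-1 only. The partners of IRF4 and IRF8 had 6 of 9 and 4, with SPI1, which encodes PU.1, and PRDM1, which encodes Blimp-1, in RS4;11 only. Because of the limit on wide peaks, the starts of SPI1 and PRDM1 cannot be called unmarked in THP-1. Of the genes of IRF-binding proteins, IRF2BP1 and IRF2BPL had a start-site peak in both lines and IRF2BP2 in neither.

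The width of start-site peaks was then compared between the lines for genes covered in both, a comparison chosen after the IRF7 and IRF9 values were seen. Among all 8368 such genes the THP-1 peak was the wider at 48.5%, and the median ratio of THP-1 to RS4;11 width was 0.995. It was the wider at 3 of 5 IRF genes (IRF3, IRF7 and IRF9), with ratios from 0.466 at IRF4 to 2.28 at IRF9. Of the interferon-stimulated genes it was the wider at 13 of 13, with a median ratio of 1.53 and a range of 1.07 (OAS3) to 3.6 (MX1), and several of these genes are neighbours in the IFIT and OAS clusters. The monocytic markers covered in both lines differed the same way and by more, with the THP-1 peak the wider at 3 of 3, a median ratio of 3.12 and a range of 1.33 to 4.2, so wider THP-1 peaks were not limited to interferon genes. The 1 B-lineage marker covered in both lines had a ratio of 0.236. ISG15, a ubiquitin-like protein, had peaks of 1549 bp in RS4;11 and 3018 bp in THP-1, and the antiviral GTPase gene MX1 had 793 and 2857 bp. STAT2, a partner of IRF9 in ISGF3, had 2872 and 3256 bp. Receptors and kinases were wider in THP-1 at 5 of 8 genes and sensors and adaptors at 6 of 8, with median ratios of 1.1 and 1.12. The partners of IRF4 and IRF8 were wider in THP-1 at 2 of 4, and SPIB was the narrower there (2296 bp in RS4;11, 931 bp in THP-1), as IRF4 was. The genes named here besides the IRF genes were chosen after their values were seen. The part of culture or chromatin preparation in these widths was not tested, and with 1 sample a line it cannot be told apart from the line.

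**Figure D4:**
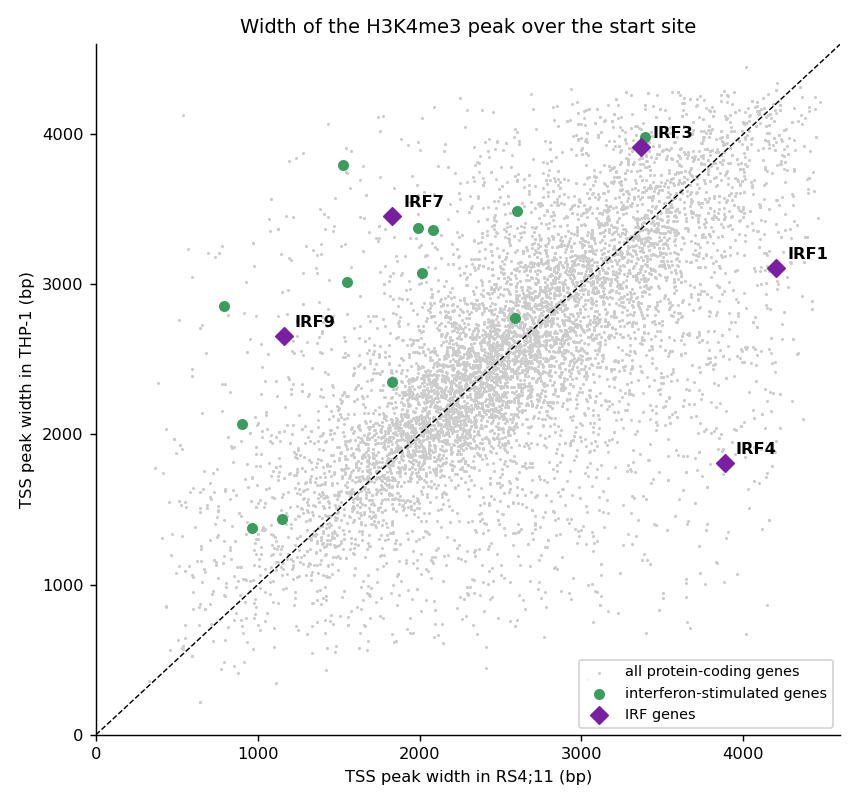
Width of the widest H3K4me3 peak over the canonical start site in RS4;11 (x axis, bp) and THP-1 (y axis, bp) for the 8368 protein-coding genes covered in both lines (grey), the 13 interferon-stimulated genes (green) and the 5 IRF genes (purple diamonds), 1 sample a line. The dashed line marks equal widths: IRF3, IRF7, IRF9 and all 13 interferon-stimulated genes lie above it, and IRF1 and IRF4 lie below it.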

How the data were processed

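WDR5 and H3K4me3 ChIP-seq peaks of RS4;11 and THP-1 cells were analysed, 1 sample for each antibody and line, as named by the labels. Per the study's methods, the authors sonicated the WDR5 chromatin and cut the H3K4me3 chromatin with micrococcal nuclease, whereas the labels give sonication for all samples. They aligned reads to hg19 with Eland (at most 2 mismatches, unique alignments) and called peaks with MACS at default settings, and the submitters' processing notes name CASAVA 1.7 and 1.8.2. The MACS version and the control are not given in the sources used here. The deposited files hold a peak region and a transcript on each line and flag whether the peak touches an exon, an intron or the 20 kb on either side. They hold no counts, heights or p-values, so the depth and the precision of a peak edge are unknown.

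Lines were reduced to distinct peaks, with coordinates taken as given. The annotation was GENCODE release 44 in GRCh37 coordinates. The design took the 5′ end of a gene as its start site. The start of the canonical transcript was added after the data were seen, because of IRF1, and it also centres the windows of 5 kb. Covered bp counts each base once, and an overlap needs 1 bp. The named genes are the 8 members, pathway genes whose start is covered in 1 line only, genes that share a peak with a member and up to 5 genes most like IRF4 and IRF8. Some genes that this rule or the lists hold are not reported here. The members and lists were chosen with earlier results of these data known. Alternatives changed the window, the start site, the minimum width and the overlap. Interval and motif code was tested on simulated data. Python 3.11.15, numpy 2.4.6, pandas 2.3.3 and matplotlib 3.10.9 were used.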

Additional observations from a re-analysis of the deposited data

How the results depend on the processing

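Of 50 alternative values, 44 stayed within 1.5 times the reported value. With the start of any annotated transcript, 8 IRF genes had an H3K4me3 peak over a start in RS4;11 in place of 5, and the RS4;11 minus THP-1 difference at IRF8 was 4292 bp, which adds windows around more starts. With only the peak at or nearest to the start counted, at full width, the median over the IRF genes was 1751.5 bp in RS4;11 and 2961.5 bp in THP-1, so the order of the lines turned from the reported 2799.5 and 2234 bp. It also turned with windows of 2 kb to each side, with 2125 and 2150 bp, and stayed with windows of 10 kb and with the 5′ end as the start. With the same 2 kb windows the RS4;11 minus THP-1 difference was 1129 bp at IRF4, 1410 bp at IRF8 and -606.5 bp for the median of the general members, which follows from the smaller window. The sign of the differences at IRF4, at IRF8 and of the general median stayed the same under the alternatives run for them. No paired analysis was possible because each group has 1 sample, and for the same reason no replicate could be left out. A stricter peak threshold was not run because the files give no peak strength, and the minimum width of 500 bp stood in for it. The lists hold no H3K4me3 peak of 4500 bp or more, so a missing peak at a start site limits the values of IRF2, IRF5 and IRF8 and the counts of pathway genes.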

Other observations

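The interferon-inducible antigen-processing genes on chromosome 6, PSMB8, PSMB9 and TAP1, stood in long stretches without a listed H3K4me3 peak. The lists hold no peak of 4500 bp or more and rest on unique alignments, so these starts cannot be called unmarked. The part of either limit was not tested. The nearest peak to the PSMB8 start lay 176760 bp away in RS4;11 and 176864 bp away in THP-1, and for TAP1 the distances were 186417 and 186521 bp. At the interferon beta gene IFNB1, a target of IRF3 and IRF7, THP-1 had 1059 bp of H3K4me3 peak within 5 kb of the start, at a nearest distance of 3701 bp, and RS4;11 had 0 bp. CIITA, an IRF1 target, had 1452 bp within 5 kb in THP-1 and 0 bp in RS4;11, with no peak over its canonical start in either line.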
